A study of Mus musculus with 3 samples.

Results

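Cyr61, Ctgf, Thbs1, Amotl2, Lats2, Yap1, Wwtr1 and Srf are 8 genes of the extracellular matrix and of the Hippo and SRF pathways. They were taken by gene symbol from a table of 24054 genes, and all 8 were found. Values are CPM, read counts normalised to the size of the library. Averaged over the libraries all 8 reached 1 CPM, so all 8 are among the 12692 genes compared. RNA came from primary cortical neurons, which are neurons grown from the brains of C57BL/6 mice at embryonic day 17 and kept in culture for 7 days. The control culture stood at 21% oxygen, the hypoxia culture at 0.2% oxygen for 7 hours without T3, and the third culture at 0.2% oxygen for 7 hours with 5 nM T3. T3 is triiodothyronine, the active thyroid hormone. Values for several libraries stand in this order, control first, unless the library is named. The labels give no T3 value for the control medium and do not say how many embryos or cultures went into a library. Each group has 1 library, so there is no replicate error, no difference was tested against biological variation, and the intervals given are exact 95% intervals for counting error only.

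Cyr61 (also named Ccn1) and Ctgf (Ccn2) belong to the CCN family of matricellular proteins, which are secreted into the matrix and signal through integrins rather than serving as structural fibres. Yap1 (YAP) and Wwtr1 (TAZ) are coactivators that enter the nucleus and switch on such genes with the TEAD DNA-binding proteins, unless LATS kinases of the Hippo pathway phosphorylate them and hold them in the cytoplasm. Cyr61, Ctgf, Amotl2 and Lats2 are widely used as readouts of YAP and TAZ. SRF, the serum response factor, drives both early response genes and actin cytoskeleton genes through the CArG box, and Cyr61 is among the genes that can respond to it. In brain, YAP is known mainly from neural progenitors and astrocytes.

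The libraries held 18081904, 17118865 and 22533574 reads, at 0.0463, 0.0552 and 0.0425 CPM for 1 read. After TMM normalisation their CPM summed to 837997, 945496 and 958205. The labelled cell type was checked against marker genes. All 12 neuron markers had reads in each library, with summed levels from 5932 to 6099 CPM. Within this sum 2 markers passed the 2-fold rule described below in opposite directions: Tubb3, a neuronal tubulin, stood at 1771, 873 and 739 CPM and Nefl, the light neurofilament, at 75.4, 171 and 185 CPM. Astrocyte markers summed to 553, 585 and 597 CPM, with Gjb6 at 0 in both hypoxic libraries, and the 8 radial glia markers to 573, 638 and 668 CPM. Hes5, a Notch effector among the latter, ran against this sum, at 10.2, 1.38 and 1.40 CPM. Oligodendrocyte lineage markers summed to 332, 192 and 194 CPM. Of 8 compared, 3 were at least 2-fold lower in hypoxia and 5 were not called. Over all genes compared 4.92% were at least 2-fold lower. The 3 were Pdgfra at 63.2, 27.2 and 22.3 CPM, Olig2 at 87.4, 41.4 and 42.8 CPM and Gpr17 at 2.41, 0.608 and 1.23 CPM. The part of these markers in the results below was not tested. Mural, fibroblast and meningeal markers summed to 23.8 to 25.7 CPM, with Myh11 at 0 in control, and microglia markers to 3.37 to 3.95 CPM, with Tmem119 at 0 in both hypoxic libraries. Endothelial markers summed to 1.70 to 2.15 CPM. Tie1 was at 0 in every library, Emcn in control and hypoxia with T3, Cldn5 in both hypoxic libraries and Cdh5 in hypoxia with T3. In RNA from a whole culture, fewer cells of a type and less RNA per cell cannot be told apart.

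The hypoxia and control libraries address how oxygen deprivation bears on these transcripts. Of the 8 genes, 3 passed 2-fold upward in hypoxia (Cyr61, Thbs1 and Srf), none was at least 2-fold lower, and 5 lay between, so that 3 were called in either direction. The 2-fold rule was applied to values with 1 CPM added. By the same rule 1.99% of all genes compared were higher and 4.92% lower, or 6.9% in either direction. The 8 genes were chosen with earlier results of these data known, so their count beside these shares is not a test. The median log2 ratio of the 8 was −0.06, with a range from −0.78 to 3.93, beside a median of 0.05 over all genes compared. The 8 genes therefore did not share a direction: the 3 higher genes ranked 8, 142 and 149 from the top of the 12692, while Lats2 and Ctgf stood at percentiles 8.64 and 11.5.

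**Figure D1:**
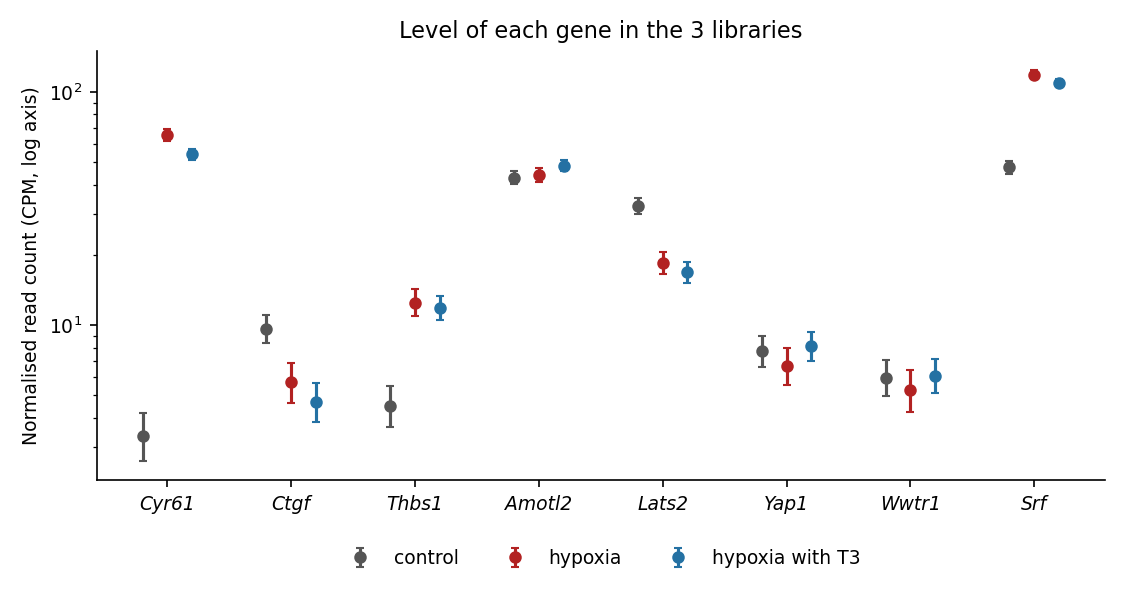
Normalised read count (CPM, log axis) of each of the 8 genes in the 3 libraries (grey control, red hypoxia, blue hypoxia with T3); bars are exact 95% Poisson intervals and cover counting error only. Cyr61 lies at 3.34 CPM in control and at 65.3 and 53.9 CPM in the hypoxic libraries, while Yap1 and Wwtr1 stay between 5.25 and 8.12 CPM.

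Cyr61 had the widest spread of the 8. It had 72 reads in control, 1182 in hypoxia and 1268 with T3 added. These correspond to 3.34 CPM (95% interval 2.61 to 4.20), 65.3 CPM (61.6 to 69.1) and 53.9 CPM (51.0 to 57.0). Both hypoxic libraries were far above control. The ratio of hypoxia to control was 19.6 (15.4 to 25.2). The gene is short: it spans 3.01 kb on the minus strand of chromosome 3, from 145646976 to 145649981 (mm10), is protein coding and has 5 exons. None of its 31-base words occurs in a transcript of another gene, so its reads are not shared with a copy. The comparisons that the authors deposited also rest on 1 library per group, so their false discovery rates cannot measure the spread between cultures. The authors' deposited table gave Cyr61 a false discovery rate of 2.93e-06 (fold 18.7), by a test whose name is not given in the sources used here. It was the only one of the 8 with a rate below 0.05, a level that 85 of the 13152 genes, or 0.646%, met in the authors' deposited table.

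Since Cyr61 is a readout of TEAD-bound YAP, the DNA just before its start is shown, from RefSeq (GRCm38.p6). The stretch is the 250 bases before the start, chr3:145649986-145650235 on the minus strand, with the TEAD motif in capitals.
Cyr61: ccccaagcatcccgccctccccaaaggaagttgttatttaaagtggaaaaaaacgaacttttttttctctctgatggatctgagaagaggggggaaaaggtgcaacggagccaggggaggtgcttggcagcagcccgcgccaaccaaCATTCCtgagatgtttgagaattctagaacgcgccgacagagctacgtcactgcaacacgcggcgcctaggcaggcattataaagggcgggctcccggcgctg
The motif searched was GGAATG on both strands, so that CATTCC is the same motif on the other strand, and it lies 103 to 98 bases before the start. Of the 6 genes with a promoter in the table, 4 held it in this window (Cyr61, Amotl2, Yap1 and Wwtr1), and 14.4% of all 27025 genes with a promoter held it in at least 1 window. Ctgf and Thbs1 have no entry. The matches of the other 3 are shown as 30 bases each, to set beside that of Cyr61: Amotl2 at chr9:102717727-102717756 (plus strand, within an exon in GENCODE M21), Yap1 at chr9:8004720-8004749 (minus) and Wwtr1 at chr3:57576029-57576058 (minus).
Amotl2: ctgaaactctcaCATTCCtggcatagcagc
Yap1: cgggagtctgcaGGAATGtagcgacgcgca
Wwtr1: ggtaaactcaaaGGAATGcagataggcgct
The hypoxia to control ratios of these 4 genes were 19.6 (Cyr61), 1.02 (Amotl2), 0.863 (Yap1) and 0.885 (Wwtr1). A match is a description of letters and not evidence of binding.

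Ctgf, the CCN family member closest to Cyr61 in its use as a YAP readout, was lower in both hypoxic libraries. It had 208, 103 and 110 reads, or 9.64, 5.69 and 4.68 CPM. Control was the highest of the 3. The level in hypoxia was 1.69-fold lower than in control (1.33 to 2.17), short of the 2-fold rule. Ctgf spans 3.24 kb on the plus strand of chromosome 10 (24595442 to 24598683) and has 3 exon blocks. It shares 665 exonic bases with Gm15270 on the opposite strand. The libraries were strand-specific, but whether reads were assigned by strand is not given in the sources used here. Length of exon here means the merged exons of all GENCODE M21 transcripts of a gene. Per length of exon, Ctgf was above Cyr61 in control, at 3.37 and 1.65 CPM per kb, with counting intervals that did not overlap. In hypoxia the order was the opposite, with Cyr61 at 32.3 CPM per kb (30.5 to 34.2) and Ctgf at 1.99 CPM per kb (1.62 to 2.41).

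Thbs1 encodes thrombospondin 1, a matricellular protein of the matrix that activates latent TGF-beta and, from astrocytes, promotes synapse formation. It had 97, 226 and 279 reads, or 4.50, 12.5 and 11.9 CPM. Both hypoxic libraries were above control and their counting intervals overlapped. The ratio of hypoxia to control was 2.78 (2.18 to 3.56). Thbs1 spans 15.3 kb on the plus strand of chromosome 2 (118111876 to 118127133), in 22 exon blocks. In the authors' deposited table its fold was 2.66 with a false discovery rate of 0.641.

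For the coactivators themselves no difference between libraries was detectable at this depth. Yap1 was at 7.74, 6.68 and 8.12 CPM, from 167, 121 and 191 reads. The ratio of hypoxia to control was 0.863 (0.678 to 1.10). Wwtr1 was at 5.93, 5.25 and 6.04 CPM, from 128, 95 and 142 reads, with a ratio of 0.885 (0.671 to 1.16). For both genes the interval includes 1, and it leaves out a difference of 2-fold by counting error alone. Yap1 spans 72.6 kb on chromosome 9 (7931999 to 8004596, minus strand) and Wwtr1 120 kb on chromosome 3 (57455649 to 57575910, minus strand). Per length of exon they were the lowest of the 8 in both hypoxic libraries, and in control they ranked 7 and 6, above Thbs1. Yap1 stood at 0.836 and Wwtr1 at 1.24 CPM per kb in control, at percentiles 12.4 and 18.0 of the genes compared. The merged exons of Yap1 come from 10 transcripts and sum to 9.26 kb, so its place depends on the annotation.

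Amotl2 and Lats2 are YAP targets that also restrain YAP, which makes them feedback genes of the pathway. Amotl2 encodes an angiomotin-like scaffold that binds YAP and activates LATS. It was at 42.9, 43.9 and 48.3 CPM, from 925, 794 and 1136 reads. The ratio of hypoxia to control was 1.02 (0.929 to 1.13), an interval that leaves out a difference of 2-fold by counting error. Lats2 encodes one of the kinases that phosphorylate YAP and TAZ. It was at 32.4, 18.4 and 16.8 CPM, from 699, 333 and 395 reads, and control was above both hypoxic libraries. Lats2 was 1.76-fold lower in hypoxia (1.54 to 2.01), short of the 2-fold rule. Amotl2 spans 16.7 kb on chromosome 9 (102716672 to 102733418, plus strand) and Lats2 68.7 kb on chromosome 14 (57689662 to 57758388, minus strand). In the annotation, 41.8% of the 31-base words of Lats2 also occur in other genes, nearly all of them in Gm49361, which shares 2955 exonic bases with it on the same strand. It is 1 of 4 members, with Ctgf, Thbs1 and Yap1, that share exonic bases with another gene, the others by 665, 208 and 116 bases on the opposite strand. The reads of Lats2 may therefore not be assigned firmly, and Gm49361 was not analysed here.

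Srf was the most abundant of the 8 per length in every library. It was at 47.4, 119 and 109 CPM, from 1023, 2148 and 2570 reads. Both hypoxic libraries were above control. The ratio of hypoxia to control was 2.50 (2.32 to 2.70). Srf spans 7.85 kb on the minus strand of chromosome 17 (46548329 to 46556175). In the authors' deposited table its fold was 2.40 with a false discovery rate of 0.743. The DNA before its start is shown because it holds the sequence that the SRF protein itself binds. The stretch is chr17:46556176-46556412, minus strand, which is the RefSeq window of 250 bases without the 13 bases that GENCODE M21 counts as exon, and capitals mark the CArG box.
Srf: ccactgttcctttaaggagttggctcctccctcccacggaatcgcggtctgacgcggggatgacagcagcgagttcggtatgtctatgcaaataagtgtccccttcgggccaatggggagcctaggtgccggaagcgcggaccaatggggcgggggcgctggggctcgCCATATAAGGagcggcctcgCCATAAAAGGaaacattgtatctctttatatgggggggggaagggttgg
The CArG box occurred 2 times, 82 to 73 and 62 to 53 bases before the start. Among the 6 genes with a promoter it was found in Srf alone, and 1.62% of all genes with a promoter held it. The core of the hypoxia response element, ACGTG on either strand, was found in 2 of the 6 (Lats2 and Yap1, in both as CACGTG, which reads the same on both strands) and in 18.5% of all genes. The AP-1 motif TGANTCA and the cAMP response element TGACGTCA were found in 0 of the 6 and in 7.82% and 1.77% of all genes. No match of one motif overlapped a match of another.

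Per length of exon the order of the 8 in control was Srf, Amotl2, Lats2, Ctgf, Cyr61, Wwtr1, Yap1 and Thbs1, from 16.4 to 0.740 CPM per kb. The order depends on the merged exon lengths, 9.26 kb from 10 transcripts for Yap1 and 2.02 kb from 1 for Cyr61. The counting intervals do not cover this. Of the 7 neighbouring pairs in this order, 2 had overlapping counting intervals, Cyr61 with Wwtr1 and Yap1 with Thbs1. In hypoxia the order was Srf, Cyr61, Amotl2, Lats2, Thbs1, Ctgf, Wwtr1 and Yap1, from 41.0 to 0.722 CPM per kb, and 1 pair overlapped, Thbs1 with Ctgf. The order in hypoxia with T3 was the same as in hypoxia, with 3 overlapping pairs. Cyr61 thus went from the fifth to the second place, and from percentile 22.6 to 88.1 of the genes compared.

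**Figure D2:**
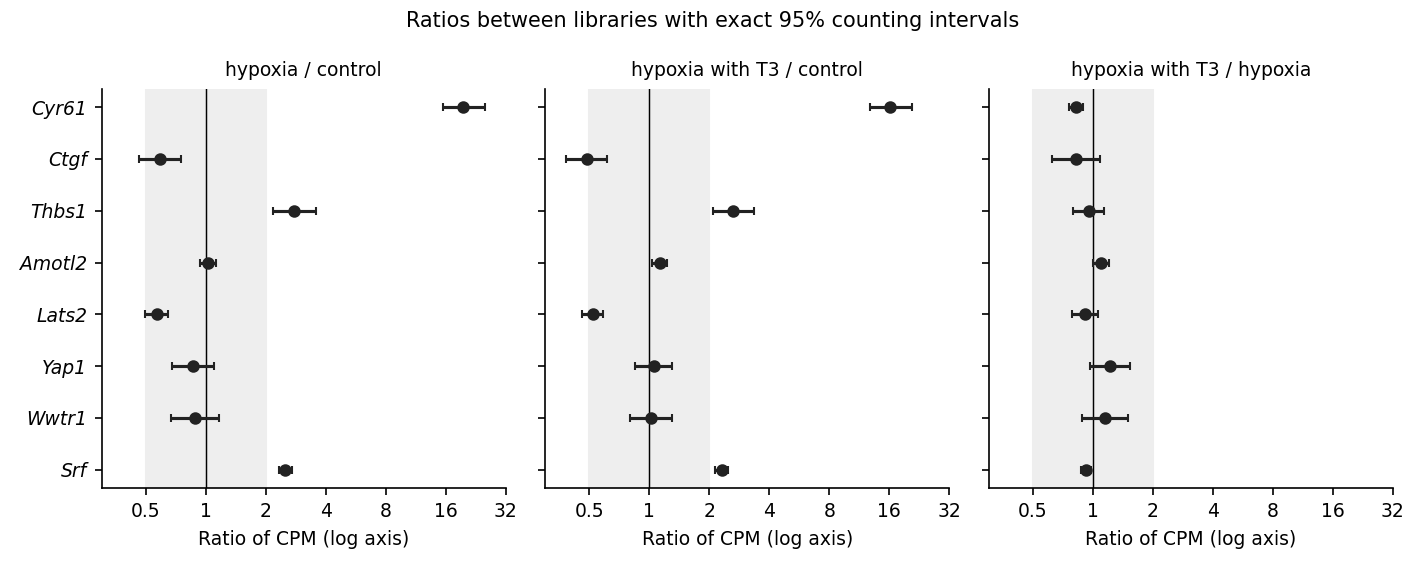
Ratio of CPM between libraries for the 8 genes (log axis), with hypoxia over control on the left, hypoxia with T3 over control in the middle and hypoxia with T3 over hypoxia on the right; bars are exact 95% counting intervals, and the grey band runs from 0.5 to 2. Cyr61, Thbs1 and Srf lie to the right of the band in both comparisons with control. Ctgf lies just to its left in the middle panel, at 0.485. All 8 genes lie inside the band between the hypoxic libraries. These ratios have no 1 CPM added, unlike the values to which the 2-fold rule was applied.

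The culture with T3 was set against hypoxia alone to see what the hormone adds at low oxygen. None of the 8 genes was at least 2-fold apart, against 0.189% of all genes compared, of which 0.126% were higher and 0.063% lower. The log2 ratios ran from −0.27 to 0.25, with a median of −0.09 beside 0.01 over all genes. Cyr61 was 1.21-fold lower with T3 (1.12 to 1.31), at percentile 4.25 of all genes compared. Srf was 1.09-fold lower (1.02 to 1.15) and Amotl2 1.10-fold higher (1.01 to 1.21). For these 3 genes the counting interval left out 1, but with 1 library a group the spread between cultures is unknown. For Ctgf, Thbs1, Lats2, Yap1 and Wwtr1 the interval included 1. Yap1 had the highest ratio of the 8, 1.22 (0.963 to 1.54).

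Hypoxia with T3 was also compared with control, a comparison that shares the control library with the first. Again 3 of the 8 passed 2-fold upward and none downward, where 2.06% and 4.59% of all genes were, or 6.65% in either direction. The ratio was 16.2 (12.7 to 20.8) for Cyr61, 2.64 (2.09 to 3.36) for Thbs1 and 2.31 (2.14 to 2.48) for Srf. Ctgf was 2.06-fold lower than control (1.63 to 2.62) and Lats2 1.93-fold lower (1.70 to 2.19), and with 1 CPM added both missed the rule, at −0.91 on the log2 scale. With libraries scaled to equal sums, Ctgf and Lats2 passed the rule in this comparison, at −1.08 and −1.09, and Srf missed it, at 0.998. Under that scaling 83.5% of the genes 2-fold apart in hypoxia over control were lower ones, and 82.1% with T3, in place of 71.2% and 69.0%. For this pair of libraries the authors' deposited table gave Cyr61 a false discovery rate of 1.53e-05 with a fold of 15.3, and the other 7 rates from 0.711 to 1.

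The genes whose pair of log2 ratios to control lay nearest to that of Cyr61, by Euclidean distance over 3 libraries and among 10364 genes that averaged 5 CPM or more, were Arc, Gadd45g and Egr4. Arc, a synaptic immediate early gene, lay at a distance of 0.129, Gadd45g, a growth arrest gene, at 0.168 and Egr4, a zinc finger factor, at 0.342. The 3 nearest to Thbs1 were Mir22hg, Slbp and Fzd1, at distances from 0.0142 to 0.0238. The 3 nearest to Srf were Fzd1, Mir22hg and Nrn1, at 0.0226 to 0.0271. Fzd1, a Wnt receptor, was at 18.2, 46.6 and 43.3 CPM.

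Other YAP and TAZ targets lay on both sides of 0. Of a list of 22 genes, 19 were compared. Of these, 3 passed the 2-fold rule upward in hypoxia and 0 downward (median log2 ratio 0.02). Over all genes compared, 1.99% passed upward and 4.92% downward. This list too was chosen with earlier results of these data known, so its count is not a test. Cyr61 is one of the 3 list genes that passed. The others were Gadd45a, a DNA damage and stress gene, at 1.20, 7.62 and 9.44 CPM, and F3, the tissue factor that starts coagulation, at 2.69, 7.01 and 9.53 CPM. Gadd45a was 6.33-fold higher in hypoxia than in control (4.14 to 10.02) and F3 2.61-fold higher (1.90 to 3.62). Ankrd1, a further common YAP readout, had 0 reads in every library. The limit used here for a count of 0 is 3 reads, which corresponds to 0.139, 0.166 and 0.128 CPM. A list chosen for YAP thus had a median near that of all genes, 0.05, with Cyr61 at its upper end.

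The TEAD and VGLL partners of YAP lay on both sides of 0, and the Hippo genes that passed the 2-fold rule were lower in hypoxia. By this rule 4.92% of all genes compared were lower in hypoxia and 1.99% higher. Among 6 compared genes of the YAP, TAZ, TEAD and VGLL group, 1 was at least 2-fold lower and none higher (median −0.20). This was Vgll4, which competes with YAP for TEAD, at 14.5, 5.25 and 4.68 CPM and 2.76-fold lower in hypoxia than in control (2.18 to 3.51). Tead1, one of the DNA-binding partners, was at 29.8, 15.7 and 14.3 CPM, 1.89-fold lower in hypoxia (1.64 to 2.18). Tead3 lay on the other side, at 1.39, 3.37 and 2.76 CPM, 2.42-fold higher in hypoxia (1.54 to 3.89), and was chosen after its values were seen. With 1 CPM added Tead3 missed the rule at 0.87 on the log2 scale, and with 0.5 CPM added 1 gene of this group passed upward. Tead4 had 0 reads in every library. Of 25 Hippo kinases and scaffolds, all compared, 4 were at least 2-fold lower in hypoxia and none higher, with a median of −0.61. The shares over all genes compared were again 4.92% lower and 1.99% higher. The 4 were Stk3 (the kinase MST2) at 13.9, 4.03 and 4.68 CPM, the giant cadherin Fat4 at 220, 86.5 and 84.5 CPM, Amotl1 at 32.7, 12.9 and 13.5 CPM, and Frmd6 at 4.77, 1.55 and 1.62 CPM. Stk3 was 3.46-fold lower in hypoxia than in control (2.67 to 4.53). The other MST kinase, Stk4, was at 56.6, 33.1 and 31.5 CPM, 1.71-fold lower (1.55 to 1.89). Lats1, which encodes the other LATS kinase, was at 107, 92.7 and 92.2 CPM, 1.15-fold lower (1.08 to 1.23). Between the hypoxic libraries none of these 25 genes was 2-fold apart.

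**Figure D3:**
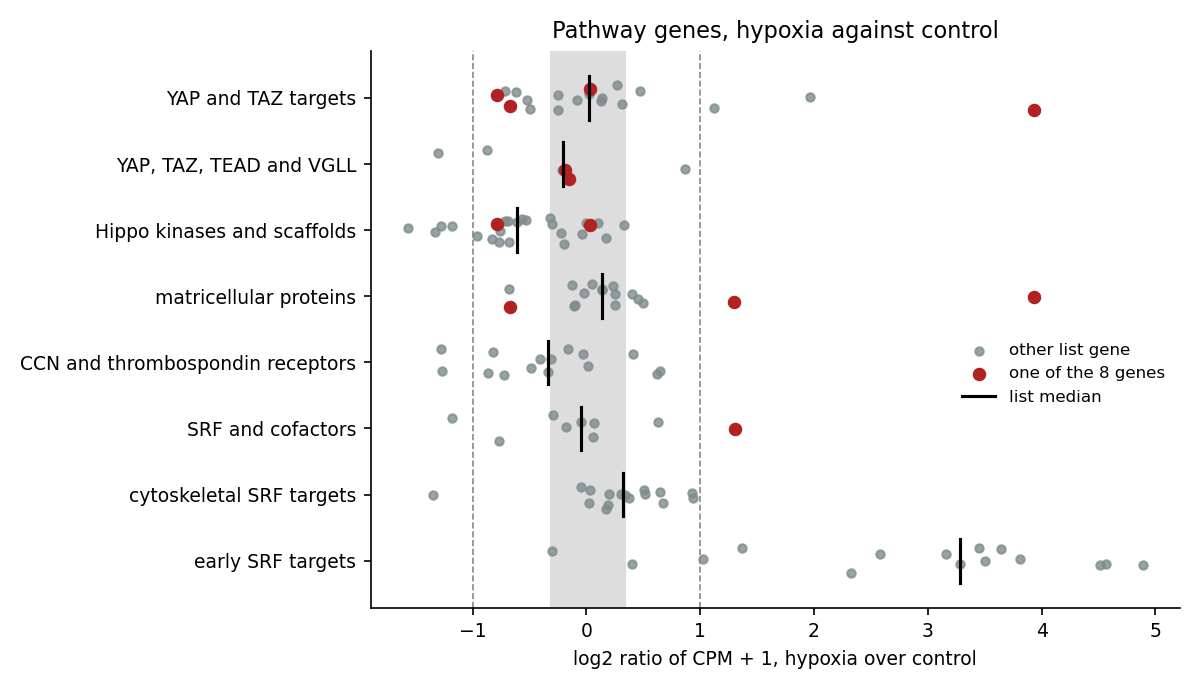
Log2 ratio of hypoxia over control (values with 1 CPM added) for the compared genes of 8 pathway lists; red points are members of the set of 8 genes, grey points other genes, black bars list medians, the grey band the middle 50% of all genes compared, and dashed lines mark 2-fold. The early SRF targets have a median of 3.29 and the Hippo kinases and scaffolds one of −0.61, and Cyr61 lies at 3.93.

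Beside Cyr61 and Thbs1 no matricellular gene compared passed the 2-fold rule in hypoxia. The counts here stand beside 1.99% of all genes compared that were higher and 4.92% that were lower. The median log2 ratio of all genes compared was 0.05. Of 26 genes on the list, 17 were compared and 9 were below the minimum. Only Cyr61 and Thbs1 were at least 2-fold higher, and the 14 compared genes outside the set of 8 held none at 2-fold in either direction (median log2 ratio 0.14). Thbs2, the closest relative of Thbs1, was at 0.232, 0.442 and 0.510 CPM, with a ratio of 1.91 in hypoxia and an interval from 0.550 to 7.41. Among 15 compared receptors and binding partners of CCN proteins and thrombospondins, 2 were at least 2-fold lower in hypoxia and none higher (median −0.34). These were the integrin subunit Itgb8, which activates latent TGF-beta, at 39.6, 15.7 and 13.0 CPM, and the Wnt coreceptor Lrp6, at 51.0, 20.7 and 22.5 CPM. Itgb8 was 2.52-fold lower in hypoxia than in control (2.20 to 2.89) and Lrp6 2.47-fold lower (2.19 to 2.79).

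The targets of SRF differed between the lists. The counts in hypoxia stand beside 1.99% of all genes compared at least 2-fold higher and 4.92% lower. Of 15 early response genes, which SRF drives with ternary complex factors, 13 passed 2-fold upward in hypoxia and 0 downward (median log2 ratio 3.29). Egr1, a zinc finger factor of this group, was at 20.4, 190 and 181 CPM, 9.31-fold higher in hypoxia than in control (8.43 to 10.3), and Ier2 was at 10.8, 133 and 127 CPM. The AP-1 subunits of the list lay higher still in their ratios, with Fosb at 2.13, 91.9 and 65.7 CPM, Junb at 7.32, 190 and 158 CPM, and Fos at 15.6, 392 and 355 CPM. Arc (1.30, 31.2 and 28.5 CPM) and Egr4 (1.34, 28.3 and 25.2 CPM) are on it too. This list is made of genes known to respond quickly to many stimuli, and most of its genes were already known to be high in these libraries. Of 16 compared cytoskeletal targets, which SRF drives with the MRTF coactivators, none was at least 2-fold higher in hypoxia and 1 was lower, the myosin heavy chain Myh9, at 45.6, 17.3 and 18.5 CPM (median of the list 0.32). Actb, beta-actin, was at 2441, 3165 and 3054 CPM, 1.30-fold higher in hypoxia (1.28 to 1.31). With T3, Cnn2 and Tagln2 passed the rule against control, with log2 ratios of 1.11 and 1.06; these 2 genes were chosen after their values were seen. Of this list 0 genes passed upward in that comparison with libraries scaled to equal sums, and 1 with median-of-ratios size factors. Among 9 compared genes of SRF and its cofactors, Srf was higher and Mkl1 lower. Mkl1, which encodes the coactivator MRTF-A, was at 45.8, 19.7 and 19.6 CPM, 2.33-fold lower in hypoxia than in control (2.06 to 2.64), and its relative Mkl2 was at 59.9, 48.7 and 51.5 CPM, 1.23-fold lower (1.13 to 1.34).

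The span of the genes moved with these ratios. Of the 2953 compared genes that span under 10 kb, 5.32% passed 2-fold upward in hypoxia and 0.847% downward, and of the 1528 that span 100 to 300 kb, 0% were higher and 17.9% lower. Cyr61, Ctgf and Srf belong to the first class, where the median log2 ratio was 0.33, and Ctgf at −0.67 stood on the other side of 0. Thbs1 and Amotl2 span 10 to 30 kb, a class with 1.94% higher. Lats2 and Yap1 span 30 to 100 kb, with 5.24% lower, and Wwtr1 belongs to the class of 100 to 300 kb, with a median of −0.35 beside its own −0.15. The Hippo kinases and scaffolds had a median span of 76.7 kb and the early SRF targets one of 4.39 kb, beside 25.8 kb over all genes compared. The part of gene span in these differences was not tested.

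**Figure D4:**
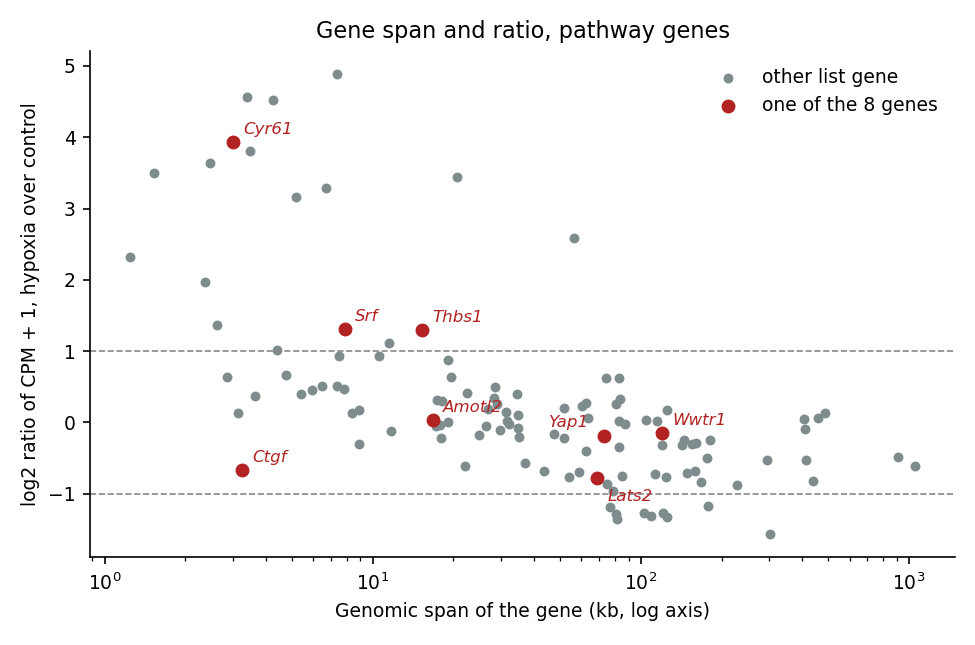
Log2 ratio of hypoxia over control (values with 1 CPM added) against the genomic span in kb (log axis) for the compared genes of the 8 pathway lists; red points are the 8 genes, grey points the other list genes, and dashed lines mark 2-fold. Cyr61 and Ctgf, which span 3.01 and 3.24 kb, lie at 3.93 and −0.67.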

How the data were processed

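Strand-specific libraries (KAPA kit) were sequenced from total RNA, 1 for each of 3 groups. The submitters' processing notes name bcl2fastq 2.17, Bowtie2 2.1.0, RSEM 1.2.15 and mm10, with no roles. The authors deposited CPM with TMM normalisation, per the file name; 100% of values were whole multiples, within 0.01, of 1 read's value, so reads were recovered. Per the file headers, the deposited comparison tables hold a signed fold (here a score), its p-value and its false discovery rate. Their signal columns were made by the authors from the same reads on another scale, and were not used.

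Log2 ratios used CPM + 1, over genes averaging 1 CPM or more. Intervals are 95% Clopper-Pearson (ratios) and Poisson (levels). No count model was run, as 1 library per group leaves no residual degrees of freedom. The procedure was tested on simulated data with counting error only, which hold no spread between cultures. The 8 genes, the 8 pathway lists and the 7 marker lists were chosen with earlier results of these data known. Named were the 8 genes, up to 6 genes per list at least 2-fold apart in hypoxia over control, the 3 nearest genes to each such member, and Tead1, Lats1, Stk4, Ankrd1, Thbs2, Mkl1, Mkl2, Actb and Egr1. GENCODE M21 (GRCm38, the assembly of mm10) matched 99.3% of compared genes. Proteins were not compared here. Alternatives covered scaling, pseudocount and filter. Tools were matplotlib 3.10.9, scipy 1.17.1, pandas 2.3.3 and numpy 2.4.6 under Python 3.11.15.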

Additional observations from a re-analysis of the deposited data

How the results depend on the processing

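Of 112 recalculations of the 24 log2 ratios of the 8 genes, 107 kept their side of the 2-fold rule and 0 reversed a called direction. The 5 others were in hypoxia with T3 over control. With libraries scaled to equal sums, which moved the median of all genes by −0.16 in hypoxia over control and by −0.18 with T3, Ctgf and Lats2 passed at −1.08 and −1.09 and Srf missed at 0.998, so that 2 of the 8 were lower in place of 0. The authors' deposited table put Ctgf at −1.11 and Lats2 at −1.02 on the log2 scale. Equal sums gave 952 lower genes in place of 624 in hypoxia over control and 899 in place of 582 with T3, as the scaling lowers both hypoxic libraries. Over all genes compared, 8 were at least 2-fold lower in hypoxia with T3 than in hypoxia. Requiring a mean of at least 5 CPM left 3 of these, from fewer genes tested. None of the 8 genes of the set was among them. Of 240 recalculated list counts, 231 were within 1.5 times. Counts of 0 that stayed at 0 are among these 231, and a pseudocount of 2 CPM was not applied to the list counts. No paired analysis was possible because each group has 1 library, and leaving out a replicate was not possible for the same reason. Depth limits the ratios that rest on few reads: the lowest counts were 72 for Cyr61 and 97 for Thbs1 in control and 95 for Wwtr1 in hypoxia.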
